A study of Homo sapiens with 16 samples.

Results

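The unfolded protein response (UPR) and ATF4 targets described here are 34 human genes, named by symbol and found in the deposited count tables through their Ensembl identifiers. They are 34 of the 67938 gene identifiers in each table, and every member had enough counts to be tested in both cell lines. By role, 13 encode chaperones, folding enzymes and secreted factors of the endoplasmic reticulum (ER), 4 serve ER-associated degradation, 7 are stress sensors and transcription factors, 4 are feedback regulators and effectors, and 6 make or import amino acids.

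RNA had been sequenced from nuclear and cytoplasmic fractions of SNU-449 and HepG2, established human liver cancer cell lines. Cells received a mixture of 2 siRNAs, siPANAD-1 and siPANAD-2, aimed at PANAD (gene C7orf25), or the control siRNA NC, and were harvested after 48 h. The 8 groups were siPANAD and NC in the SNU-449 nucleus, the SNU-449 cytoplasm, the HepG2 nucleus and the HepG2 cytoplasm, with 2 libraries each, called biological duplicates by the design text. The title of the series ties PANAD to the mRNA export receptor NXF1, so the comparisons ask what siPANAD did to mRNA levels in each compartment and to the balance of nucleus against cytoplasm.

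The 16 libraries held 16238235 to 30321908 counts. C7orf25 itself had 0 to 4 counts in the siPANAD libraries and 0 to 7 in the NC libraries, so these counts could not check its knockdown. The nuclear RNA MALAT1 stood at 370 to 634 CPM (counts relative to all counts of the library, with no further scaling) in nuclear libraries, against 2.21 to 5.84 CPM in cytoplasmic ones. NEAT1, also nuclear, stood at 547 to 3270 CPM against 4.77 to 89.6 CPM. The cytoplasmic mRNA GAPDH stood at 884 to 1360 CPM in nuclear libraries, against 4040 to 5930 CPM in cytoplasmic ones. How much cytoplasmic or ER-bound RNA the nuclear fractions carried was not tested. Of 9 hepatocyte genes 8 were lower in SNU-449 than in HepG2 in both fractions, at no more than 5.01 CPM in SNU-449. Albumin (ALB) stood at 0 to 0.351 CPM in SNU-449, against 7170 to 9900 CPM in HepG2, and APOB was at 0 counts in all SNU-449 libraries. The ninth, FGB, stood at 83.9 to 272 CPM in SNU-449 nuclei, against 54.8 to 129 CPM in HepG2 nuclei, and at 16.3 to 50.8 CPM in SNU-449 cytoplasm, against 33.3 to 66.9 CPM in HepG2 cytoplasm. Of 6 mesenchymal genes VIM, COL1A1 and COL4A1 were higher in SNU-449 in both fractions, FN1 was lower (4.85 to 73.5 CPM, against 1110 to 7310 CPM in HepG2), and CDH2 and ZEB1 overlapped in at least 1 fraction.

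As background, the ER senses unfolded protein through 3 membrane proteins. IRE1 (gene ERN1) splices XBP1 mRNA, ATF6 is cleaved to release a transcription factor, and PERK (gene EIF2AK3) phosphorylates the translation factor eIF2, which favours translation of ATF4. XBP1 and ATF6 raise genes for folding and degradation, and ATF4 raises genes for amino acid supply, redox balance and feedback. Liver cells secrete much protein and rely on these chaperones at rest.

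Promoter sequences of RefSeq (GRCh38.p14, 250 bases before to 50 after each gene's start) were found for 33 of the 34 members. They were searched on both strands for the ER stress response element ERSE (CCAAT, 9 bases of any kind, then CCACG), ERSE-II (ATTGG, any base, then CCACG), the UPR element UPRE (TGACGTGG) and the C/EBP-ATF response element CARE (TGATGNAA). ERSE stood in 27 of 35116 promoters (0.077%) and in those of HSPA5, HSP90B1, PDIA6, ERO1B, CRELD2 and XBP1. ERSE-II stood in 19 promoters (0.054%), among them those of HYOU1, HERPUD1 and SDF2L1. UPRE stood in 256 promoters (0.729%) and, of the members, in that of HYOU1, where it overlaps an ERSE-II. CARE stood in 1270 promoters (3.62%), among them those of ASNS, SLC3A2, CHAC1, HERPUD1 and CEBPG. A match is a run of letters, not a shown binding site. The stretches below are printed because genes with the same element had different values after siPANAD. Each reads 5′ to 3′ along its gene, and capitals mark the elements.
HSPA5 (ERSE, chr9:125241371-125241429, minus strand): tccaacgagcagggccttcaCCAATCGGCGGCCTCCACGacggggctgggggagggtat
XBP1 (ERSE, chr22:28800583-28800641, minus strand): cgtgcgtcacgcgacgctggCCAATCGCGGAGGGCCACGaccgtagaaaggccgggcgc
ERO1B (ERSE in reverse orientation, chr1:236282163-236282208, minus strand): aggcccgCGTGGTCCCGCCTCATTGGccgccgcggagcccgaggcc
HYOU1 (UPRE with an overlapping ERSE-II, then a further ERSE-II, both ERSE-II reversed, chr11:119057254-119057413, minus strand): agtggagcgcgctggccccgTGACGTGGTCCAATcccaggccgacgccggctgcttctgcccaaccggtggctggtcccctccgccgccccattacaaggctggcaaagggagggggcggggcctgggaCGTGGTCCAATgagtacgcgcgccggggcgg
SDF2L1 (ERSE-II in reverse orientation, chr22:21642094-21642144, plus strand): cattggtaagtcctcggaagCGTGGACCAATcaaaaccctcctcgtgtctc
HERPUD1 (CARE in reverse orientation, then ERSE-II, chr16:56931946-56932055, plus strand): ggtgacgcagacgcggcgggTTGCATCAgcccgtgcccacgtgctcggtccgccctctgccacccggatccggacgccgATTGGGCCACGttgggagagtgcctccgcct
CEBPG (CARE, chr19:33374051-33374098, plus strand): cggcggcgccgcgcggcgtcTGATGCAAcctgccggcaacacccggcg
CHAC1 (CARE in reverse orientation, chr15:40953242-40953289, plus strand): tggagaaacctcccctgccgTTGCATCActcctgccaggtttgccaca

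More than 20 of the 34 members fell after siPANAD in each of the 4 comparisons taken alone, and 15 fell in all 4. Levels are TMM-normalised CPM within a line, changes are log2 fold changes of siPANAD over NC with their standard error (SE), and a member is called at an adjusted p under 0.05 over all genes by edgeR's quasi-likelihood test, with n = 2 libraries per group. Each SE was worked back from that test, as the size of the log2 value over the square root of its F statistic. In the SNU-449 nucleus 22 members fell and 5 rose, where 23.9% of all 17895 genes tested fell and 22.1% rose (46% called). In the SNU-449 cytoplasm 26 fell and 0 rose, beside 20.1% and 19.6% of all genes (39.7% called). In the HepG2 nucleus 26 fell and 1 rose, beside 23.6% and 22% of the 17499 genes tested in that line (45.6% called). With libraries scaled to their total counts the median of all genes in the HepG2 nucleus moved by 0.1625, rises made up 64.4% of its calls in place of 48.2%, and no member call in the 4 comparisons changed direction. In the HepG2 cytoplasm 27 fell and 0 rose, beside 24.2% and 23.7% (47.9% called).

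The median log2 fold change of the 34 members was -0.44 in the SNU-449 nucleus, -0.74 in the SNU-449 cytoplasm, -0.73 in the HepG2 nucleus and -0.89 in the HepG2 cytoplasm. Over all genes tested the medians were -0.01, 0.04, -0.03 and -0.00 in the same order. Without ASNS, which had too few counts for a fold in the SNU-449 cytoplasm, that fraction's median over 33 members was -0.73. Of the members, 15 fell in all 4 comparisons: HSPA5, HSP90B1, HYOU1, DNAJB9, DNAJB11, PDIA4, PDIA6, ERO1A, CRELD2, SEL1L, ATF6, XBP1, TRIB3, PSAT1 and SLC7A5. Among these, CRELD2, SEL1L, PSAT1 and SLC7A5 lost a call in some comparison when a single library was left out, as given below. Of the 15017 genes tested in both lines, 906 (6.03%) fell in all 4. No member rose in all 4, and ERO1B, SYVN1, EDEM1 and ERN1 were called in opposite directions in different comparisons. The p-values weigh a change against the spread between libraries of the same group. That spread is pooled over all groups of a fit and drawn toward that of other genes. In bulk RNA, fewer cells that express a gene and less of its RNA per cell cannot be told apart.

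**Figure D1:**
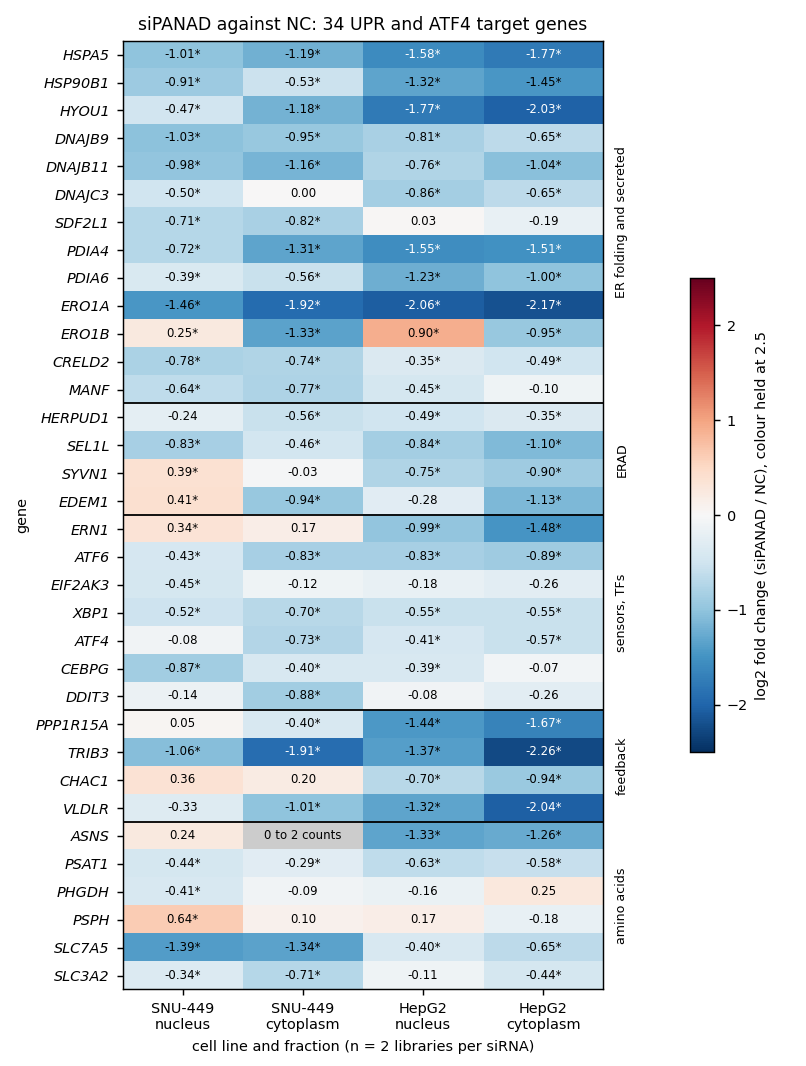
Log2 fold change of siPANAD over NC (colour, held at 2.5) for the 34 genes (rows, by role) in each line and fraction (columns, n = 2 libraries per siRNA), with an asterisk at an edgeR adjusted p under 0.05. ERO1A has the deepest blue of the folding group in every column, ERO1B is red in both nuclei and blue in both cytoplasms, and ASNS in the SNU-449 cytoplasm (0 to 2 counts) has no value.

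Among the 13 chaperone, folding and secreted factor genes, 12 fell and 1 rose in the SNU-449 nucleus, 12 fell in its cytoplasm, 11 fell and 1 rose in the HepG2 nucleus, and 11 fell in its cytoplasm. The oxidase ERO1A, which hands oxidising equivalents to protein disulfide isomerases, had the largest fold of the group in each comparison. ERO1A (chr14:52639916-52695900, minus strand) stood at 18.1 and 17.4 CPM in SNU-449 siPANAD nuclei, against 51.5 and 46.02 CPM in NC nuclei, and at 20.97 and 21.8 CPM in siPANAD cytoplasm, against 81.8 and 79.7 CPM in NC cytoplasm. In HepG2, ERO1A stood at 21.3 and 25.8 CPM in siPANAD nuclei, against 108 and 88.2 CPM in NC nuclei, and at 37.7 and 35.5 CPM in siPANAD cytoplasm, against 170.2 and 160.4 CPM in NC cytoplasm. No siPANAD library reached any NC library of its fraction. The log2 changes were -1.46 (SE 0.11), -1.92 (SE 0.11), -2.06 (SE 0.14) and -2.17 (SE 0.14) in the SNU-449 nucleus and cytoplasm and the HepG2 nucleus and cytoplasm, with edgeR adjusted p between 2.27e-16 and 9.05e-12.

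HSPA5 (chr9:125234853-125241330, minus strand) encodes BiP, the main ER chaperone. It stood at 591 and 611 CPM in SNU-449 siPANAD nuclei, against 1220 and 1206 CPM in NC nuclei, and at 182 and 155 CPM in siPANAD cytoplasm, against 399.6 and 372 CPM in NC cytoplasm. HSPA5 had HepG2 levels of 262 and 251 CPM in siPANAD nuclei, against 785 and 744 CPM in NC nuclei, and 271 and 260.2 CPM in siPANAD cytoplasm, against 873 and 939 CPM in NC cytoplasm. The siPANAD libraries lay below the NC libraries throughout, with log2 changes of -1.01 (SE 0.092) and -1.19 (SE 0.095) in the SNU-449 nucleus and cytoplasm and -1.58 (SE 0.13) and -1.77 (SE 0.13) in HepG2 (edgeR adjusted p at most 5.15e-10).

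HYOU1, a large chaperone that acts with BiP, stood at 116 and 115 CPM in SNU-449 siPANAD nuclei, against 156 and 165 CPM in NC nuclei, and at 104 and 89.3 CPM in siPANAD cytoplasm, against 208 and 229 CPM in NC cytoplasm. HepG2 levels of HYOU1 were 128 and 152 CPM in siPANAD nuclei, against 504 and 451 CPM in NC nuclei, and 149 and 149.5 CPM in siPANAD cytoplasm, against 668 and 551 CPM in NC cytoplasm. The fall was smallest in the SNU-449 nucleus (log2 change -0.47 (SE 0.092), edgeR adjusted p = 7.08e-05) and largest in the HepG2 cytoplasm (-2.03 (SE 0.14), adjusted p = 1.49e-11). HSP90B1, the ER chaperone GRP94, stood at 519 and 492 CPM in SNU-449 siPANAD nuclei, against 1029 and 867 CPM in NC nuclei, and at 174 and 180.5 CPM in siPANAD cytoplasm, against 272 and 240.1 CPM in NC cytoplasm. In HepG2, HSP90B1 stood at 700.4 and 652 CPM in siPANAD nuclei, against 1723 and 1652 CPM in NC nuclei, and at 326 and 318 CPM in siPANAD cytoplasm, against 812 and 946 CPM in NC cytoplasm. All siPANAD libraries were lower, with log2 changes of -0.91 (SE 0.094) in the SNU-449 nucleus, -0.53 (SE 0.097) in its cytoplasm, -1.32 (SE 0.14) in the HepG2 nucleus and -1.45 (SE 0.14) in its cytoplasm (edgeR adjusted p at most 2.52e-05).

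PDIA4, a protein disulfide isomerase, stood at 261 and 250 CPM in SNU-449 siPANAD nuclei, against 405 and 436 CPM in NC nuclei, and at 174 and 159 CPM in siPANAD cytoplasm, against 402 and 423 CPM in NC cytoplasm. PDIA4 had HepG2 levels of 221 and 221 CPM in siPANAD nuclei, against 622 and 671 CPM in NC nuclei, and 346 and 379 CPM in siPANAD cytoplasm, against 1063 and 999 CPM in NC cytoplasm. Its log2 change was -0.72 (SE 0.089) in the SNU-449 nucleus and between -1.55 and -1.31 in the other 3 comparisons (edgeR adjusted p at most 3.15e-08). Its relative PDIA6 fell in every comparison as well, by log2 changes between -1.23 and -0.39, though 25.2% of its exonic bases lie opposite ATP6V1C2 and the use of strand in counting is not known here. The BiP co-chaperones DNAJB9 and DNAJB11 (15.3% of its exonic bases opposite other genes) fell in every comparison, by log2 changes between -1.16 and -0.65, and CRELD2, a secreted ER factor, by changes between -0.78 and -0.35. The CRELD2 call in the HepG2 nucleus was lost on leaving out any 1 of 5 HepG2 libraries, with values between -0.39 and -0.20, and also under total-count scaling (-0.19), with no filter on low counts (-0.32) and with DESeq2 (-0.36).

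DNAJC3, a further BiP co-chaperone, fell in 3 comparisons and stood at 21.1 and 20.5 CPM in SNU-449 siPANAD cytoplasm, against 21.5 and 19.99 CPM in NC cytoplasm (edgeR adjusted p = 1.0). SDF2L1 fell in both SNU-449 fractions (-0.71 (SE 0.11) in the nucleus and -0.82 (SE 0.10) in the cytoplasm). HepG2 levels of SDF2L1 were 13.2 and 12.1 CPM in siPANAD nuclei, against 8.37 and 16.4 CPM in NC nuclei, and 49.1 and 48.9 CPM in siPANAD cytoplasm, against 51.9 and 59.6 CPM in NC cytoplasm, where the groups overlapped in the nucleus and neither fraction passed the edgeR test (adjusted p = 0.928 and 0.505). Without HepG2 nucleus NC replicate 2 the nuclear log2 change was 0.59 and passed (adjusted p = 0.0123). MANF, a secreted factor, fell in all but the HepG2 cytoplasm, where it stood at 101 and 92.8 CPM after siPANAD, against 112 and 96.5 CPM after NC, with an adjusted p of 0.528. The HepG2 nuclear call of MANF was lost without nucleus siPANAD replicate 1 (-0.40, adjusted p = 0.0777) and under total-count scaling (adjusted p = 0.0648).

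ERO1B, the second ER oxidase, rose in the nuclei and fell in the cytoplasm of both lines. It stood at 46.1 and 47.3 CPM in SNU-449 siPANAD nuclei, against 40.1 and 38.4 CPM in NC nuclei, and at 16.5 and 17.2 CPM in siPANAD cytoplasm, against 43.8 and 40.97 CPM in NC cytoplasm. In HepG2, ERO1B stood at 7.19 and 4.54 CPM in siPANAD nuclei, against 3.003 and 3.29 CPM in NC nuclei, and at 1.04 and 0.862 CPM in siPANAD cytoplasm, against 1.59 and 2.02 CPM in NC cytoplasm. The groups did not overlap in any fraction. The log2 changes were 0.25 (SE 0.10) in the SNU-449 nucleus (edgeR adjusted p = 0.0427), -1.33 (SE 0.12) in its cytoplasm (1.26e-11), 0.90 (SE 0.23) in the HepG2 nucleus (0.00256) and -0.95 (SE 0.37) in its cytoplasm (0.0352). The SNU-449 nuclear call was lost without any of the 4 nuclear libraries of that line (log2 change 0.21 to 0.28) and the HepG2 nuclear call without siPANAD replicate 1 (0.52, adjusted p = 0.178). The HepG2 cytoplasmic call was lost without NC replicate 2, siPANAD replicate 1 or siPANAD replicate 2 (-1.13 to -0.74). With DESeq2 the fall in the SNU-449 cytoplasm passed, while the other 3 comparisons did not (adjusted p = 0.0871 in the SNU-449 nucleus, 0.0514 in the HepG2 nucleus and 0.0993 in the HepG2 cytoplasm). Leaving low counts in the fit ended the SNU-449 nuclear call too (0.21, adjusted p = 0.156), as did the replicate block (adjusted p = 0.0528).

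Of the 9 members with an ERSE or ERSE-II before their start, 7 fell and 1 rose in each nucleus, all 9 fell in the SNU-449 cytoplasm and 8 in the HepG2 cytoplasm. Their log2 changes ran between -1.01 and 0.25 in the SNU-449 nucleus and between -1.77 and 0.90 in the HepG2 nucleus. ERO1B carries the ERSE printed above and was the member that rose, and HSPA5, with the same element, fell in all 4 comparisons. Of the 5 members with a CARE, 2 fell in the SNU-449 nucleus, 3 in its cytoplasm and 4 in each HepG2 fraction. Of all 34 members 22 fell in the SNU-449 nucleus, 26 in its cytoplasm, 26 in the HepG2 nucleus and 27 in its cytoplasm. Of all genes tested 23.9%, 20.1%, 23.6% and 24.2% fell in the same order, and 22.1% and 22% rose in the nuclei. Whether an element goes with a fall was not tested.

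**Figure D2:**
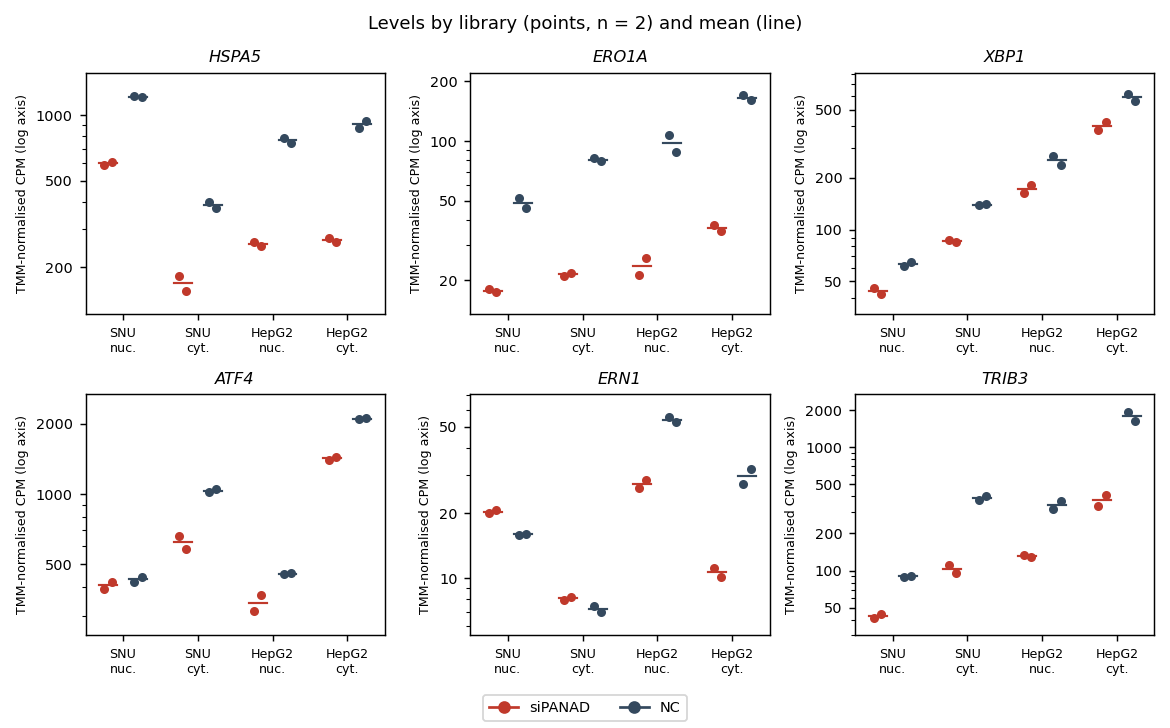
TMM-normalised CPM (log axis) of HSPA5, ERO1A, XBP1, ATF4, ERN1 and TRIB3 in each library (points) with the mean of 2 libraries (line), by line and fraction, with siPANAD left of NC. HSPA5, ERO1A, XBP1 and TRIB3 lie lower after siPANAD in every fraction, ATF4 differs least in the SNU-449 nucleus, and ERN1 is lower after siPANAD in HepG2 and not in SNU-449.

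Of the 4 genes of ER-associated degradation, which returns misfolded proteins to the cytosol for destruction, all 4 fell in the HepG2 cytoplasm and 3 in the HepG2 nucleus, while in the SNU-449 nucleus 2 rose and 1 fell. SEL1L, the adaptor of the degradation complex, stood at 28.04 and 26.1 CPM in SNU-449 siPANAD nuclei, against 54.2 and 41.9 CPM in NC nuclei, and at 15.4 and 17.3 CPM in siPANAD cytoplasm, against 23.4 and 21.6 CPM in NC cytoplasm. SEL1L had HepG2 levels of 37.3 and 37.02 CPM in siPANAD nuclei, against 67.6 and 65.5 CPM in NC nuclei, and 36.4 and 37.2 CPM in siPANAD cytoplasm, against 76.3 and 81.9 CPM in NC cytoplasm. It was lower after siPANAD in every fraction, with log2 changes of -0.83 (SE 0.12), -0.46 (SE 0.14), -0.84 (SE 0.12) and -1.10 (SE 0.12) (edgeR adjusted p at most 0.00759). The SNU-449 cytoplasmic call was lost without NC replicate 1 (-0.40) or siPANAD replicate 1 (-0.35).

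SYVN1, the ubiquitin ligase that SEL1L serves, differed between the lines. It stood at 46.97 and 47.7 CPM in SNU-449 siPANAD nuclei, against 35.6 and 36.9 CPM in NC nuclei, and at 16.5 and 18.7 CPM in siPANAD cytoplasm, against 17.2 and 18.6 CPM in NC cytoplasm. HepG2 levels of SYVN1 were 70.01 and 84.7 CPM in siPANAD nuclei, against 138 and 122 CPM in NC nuclei, and 29.8 and 29.4 CPM in siPANAD cytoplasm, against 64.2 and 46.5 CPM in NC cytoplasm. It rose in the SNU-449 nucleus (0.39 (SE 0.11), edgeR adjusted p = 0.00302) and fell in both HepG2 fractions (-0.75 (SE 0.14) and -0.90 (SE 0.15)), while the SNU-449 cytoplasmic groups overlapped. Of the exonic bases of SYVN1 8.4% are shared on the same strand with FAU and MIR6751 and 6.5% lie opposite MRPL49. How such reads were counted is not known here.

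EDEM1, which extracts misfolded glycoproteins from the folding cycle, stood at 36.3 and 37.1 CPM in SNU-449 siPANAD nuclei, against 26.2 and 29.2 CPM in NC nuclei, and at 13.6 and 14.8 CPM in siPANAD cytoplasm, against 26.5 and 28.3 CPM in NC cytoplasm. In HepG2, EDEM1 stood at 34.2 and 35.7 CPM in siPANAD nuclei, against 41.2 and 43.8 CPM in NC nuclei, and at 27.7 and 25.8 CPM in siPANAD cytoplasm, against 49.02 and 67.4 CPM in NC cytoplasm. It rose in the SNU-449 nucleus (0.41 (SE 0.11), edgeR adjusted p = 0.00257) and fell in the cytoplasm of SNU-449 (-0.94 (SE 0.13)) and of HepG2 (-1.13 (SE 0.14)). Without SNU-449 nucleus NC replicate 1 the rise was 0.33, with an adjusted p of 0.0528. HERPUD1, a small ER membrane protein of the same machinery, stood at 22.2 and 24.6 CPM in SNU-449 siPANAD nuclei, against 25.9 and 29.5 CPM in NC nuclei, and at 17.9 and 14.2 CPM in siPANAD cytoplasm, against 24.1 and 23.5 CPM in NC cytoplasm. HERPUD1 had HepG2 levels of 52.4 and 54.6 CPM in siPANAD nuclei, against 73.2 and 76.9 CPM in NC nuclei, and 89.1 and 79.9 CPM in siPANAD cytoplasm, against 101 and 114 CPM in NC cytoplasm. HERPUD1 fell in the SNU-449 cytoplasm (-0.56 (SE 0.14)) and in the HepG2 nucleus (-0.49 (SE 0.12)) and cytoplasm (-0.35 (SE 0.12), edgeR adjusted p = 0.0207). The HepG2 cytoplasmic call was lost without NC replicate 2 (-0.26) or siPANAD replicate 2 (-0.31).

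Of the 7 sensors and transcription factors, 4 fell and 1 rose in the SNU-449 nucleus, 5 fell in its cytoplasm, 5 fell in the HepG2 nucleus and 4 in its cytoplasm. The 3 sensors differed. ERN1 (chr17:64039142-64130819, minus strand) stood at 19.9 and 20.6 CPM in SNU-449 siPANAD nuclei, against 15.9 and 16.01 CPM in NC nuclei, and at 7.89 and 8.22 CPM in siPANAD cytoplasm, against 7.41 and 6.95 CPM in NC cytoplasm. HepG2 levels of ERN1 were 26.1 and 28.3 CPM in siPANAD nuclei, against 55.5 and 52.8 CPM in NC nuclei, and 11.2 and 10.1 CPM in siPANAD cytoplasm, against 27.3 and 32.1 CPM in NC cytoplasm. ERN1 thus fell in both HepG2 fractions (-0.99 (SE 0.13) in the nucleus and -1.48 (SE 0.15) in the cytoplasm, edgeR adjusted p = 7.76e-07 and 7.54e-09). It rose in the SNU-449 nucleus (0.34 (SE 0.12), adjusted p = 0.0209), a call lost without any of the 4 nuclear libraries of that line (0.32 to 0.36), with DESeq2 (adjusted p = 0.0999) and with no filter on low counts (adjusted p = 0.0708).

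ATF6 stood at 20.5 and 19.3 CPM in SNU-449 siPANAD nuclei, against 26.5 and 26.99 CPM in NC nuclei, and at 26.4 and 26.2 CPM in siPANAD cytoplasm, against 49.9 and 43.7 CPM in NC cytoplasm. In HepG2, ATF6 stood at 19.6 and 20.98 CPM in siPANAD nuclei, against 37.7 and 34.3 CPM in NC nuclei, and at 21.4 and 22.6 CPM in siPANAD cytoplasm, against 44.03 and 37.7 CPM in NC cytoplasm. It fell in every comparison, by log2 changes of -0.43 (SE 0.11), -0.83 (SE 0.12), -0.83 (SE 0.13) and -0.89 (SE 0.14) (edgeR adjusted p at most 0.00221). EIF2AK3, with 15.1% of its exonic bases opposite other genes, was scarce. It stood at 5.34 and 5.21 CPM in SNU-449 siPANAD nuclei, against 7.402 and 6.98 CPM in NC nuclei, and at 2.32 and 2.07 CPM in siPANAD cytoplasm, against 1.83 and 2.91 CPM in NC cytoplasm. EIF2AK3 had HepG2 levels of 20.7 and 18.3 CPM in siPANAD nuclei, against 21.5 and 22.7 CPM in NC nuclei, and 13.7 and 11.2 CPM in siPANAD cytoplasm, against 12.8 and 16.6 CPM in NC cytoplasm. It fell in the SNU-449 nucleus (-0.45 (SE 0.17), edgeR adjusted p = 0.0313), and that call was lost without NC replicate 1 (-0.41), siPANAD replicate 1 (-0.47) or siPANAD replicate 2 (-0.43), with DESeq2 (adjusted p = 0.229) and under total-count scaling (-0.39, 0.0628). A fall in the HepG2 cytoplasm passed without NC replicate 1 (-0.43, adjusted p = 0.0369).

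XBP1, the transcription factor downstream of IRE1, stood at 45.6 and 42.4 CPM in SNU-449 siPANAD nuclei, against 61.2 and 65.1 CPM in NC nuclei, and at 87.7 and 85.3 CPM in siPANAD cytoplasm, against 139 and 141 CPM in NC cytoplasm. HepG2 levels of XBP1 were 163 and 182 CPM in siPANAD nuclei, against 268 and 238 CPM in NC nuclei, and 379.9 and 425 CPM in siPANAD cytoplasm, against 618 and 558 CPM in NC cytoplasm. The siPANAD libraries were lower throughout, with log2 changes of -0.52 (SE 0.095), -0.70 (SE 0.094), -0.55 (SE 0.13) and -0.55 (SE 0.13) (edgeR adjusted p at most 0.00145). Counts per gene do not separate spliced from unspliced XBP1 mRNA.

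ATF4 (chr22:39519695-39522685, plus strand), whose activity is set largely by translation, stood at 391.9 and 421 CPM in SNU-449 siPANAD nuclei, against 421 and 441 CPM in NC nuclei, and at 659 and 584 CPM in siPANAD cytoplasm, against 1016 and 1049 CPM in NC cytoplasm. In HepG2, ATF4 stood at 314 and 371 CPM in siPANAD nuclei, against 455 and 457 CPM in NC nuclei, and at 1397 and 1447 CPM in siPANAD cytoplasm, against 2095 and 2115 CPM in NC cytoplasm. The SNU-449 nuclear groups overlapped (edgeR adjusted p = 0.473), and ATF4 fell in the SNU-449 cytoplasm (-0.73 (SE 0.091), adjusted p = 2.83e-08), the HepG2 nucleus (-0.41 (SE 0.14), 0.0164) and the HepG2 cytoplasm (-0.57 (SE 0.14), 0.00133). Without HepG2 nucleus siPANAD replicate 1 the nuclear change was -0.30, with an adjusted p of 0.253, and under total-count scaling it was -0.25, with an adjusted p of 0.095.

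CEBPG, a partner of ATF4, stood at 15.8 and 16.96 CPM in SNU-449 siPANAD nuclei, against 29.5 and 30.6 CPM in NC nuclei, and at 22.9 and 22.4 CPM in siPANAD cytoplasm, against 31.8 and 28.1 CPM in NC cytoplasm. CEBPG had HepG2 levels of 41.2 and 38.05 CPM in siPANAD nuclei, against 52.8 and 51.2 CPM in NC nuclei, and 132 and 132 CPM in siPANAD cytoplasm, against 131 and 146 CPM in NC cytoplasm, where the groups overlapped. CEBPG fell in the SNU-449 nucleus (-0.87 (SE 0.12)), the SNU-449 cytoplasm (-0.40 (SE 0.12)) and the HepG2 nucleus (-0.39 (SE 0.13), edgeR adjusted p = 0.0127). The SNU-449 cytoplasmic call was lost without NC replicate 1 (-0.32) and the HepG2 nuclear call without siPANAD replicate 2 (-0.35) or under total-count scaling (-0.23). DDIT3 encodes CHOP, a factor tied to cell death under prolonged stress. It stood at 20.4 and 25.2 CPM in SNU-449 siPANAD nuclei, against 21.9 and 28.6 CPM in NC nuclei, and at 4.41 and 3.505 CPM in siPANAD cytoplasm, against 8.87 and 5.67 CPM in NC cytoplasm. HepG2 levels of DDIT3 were 43.05 and 42.5 CPM in siPANAD nuclei, against 41.8 and 48.5 CPM in NC nuclei, and 25.7 and 26.4 CPM in siPANAD cytoplasm, against 28.6 and 33.6 CPM in NC cytoplasm. It fell in the SNU-449 cytoplasm (-0.88 (SE 0.24), edgeR adjusted p = 0.00535), a call lost without NC replicate 1 (-0.53) or siPANAD replicate 2 (-0.71). Of its exonic bases 31.6% lie opposite MARS and MBD6, so its counts are uncertain. A fall in the HepG2 cytoplasm passed under total-count scaling (-0.37, adjusted p = 0.0311) and without NC replicate 1 (-0.37, adjusted p = 0.0349).

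Of the 4 feedback genes and effectors all fell in both HepG2 fractions, 3 fell in the SNU-449 cytoplasm and 1 in the SNU-449 nucleus. TRIB3 (chr20:362835-397559, plus strand), a pseudokinase that restrains ATF4, stood at 41.7 and 44.3 CPM in SNU-449 siPANAD nuclei, against 88.3 and 90.9 CPM in NC nuclei, and at 111 and 94.8 CPM in siPANAD cytoplasm, against 373 and 401 CPM in NC cytoplasm. In HepG2, TRIB3 stood at 133 and 129 CPM in siPANAD nuclei, against 313 and 363 CPM in NC nuclei, and at 332 and 411 CPM in siPANAD cytoplasm, against 1924 and 1632 CPM in NC cytoplasm. It was lower in every siPANAD library than in any NC library of its fraction, by log2 changes of -1.06 (SE 0.097), -1.91 (SE 0.096), -1.37 (SE 0.15) and -2.26 (SE 0.15) (edgeR adjusted p at most 3.48e-08).

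PPP1R15A, the phosphatase subunit GADD34 that reverses eIF2 phosphorylation, stood at 230.3 and 252 CPM in SNU-449 siPANAD nuclei, against 212 and 252 CPM in NC nuclei, and at 170 and 176 CPM in siPANAD cytoplasm, against 202 and 257 CPM in NC cytoplasm. PPP1R15A had HepG2 levels of 63.6 and 75.3 CPM in siPANAD nuclei, against 198 and 178 CPM in NC nuclei, and 73.1 and 79.2 CPM in siPANAD cytoplasm, against 271 and 215 CPM in NC cytoplasm. It fell in HepG2 (-1.44 (SE 0.14) in the nucleus and -1.67 (SE 0.14) in the cytoplasm) and in the SNU-449 cytoplasm (-0.40 (SE 0.10), edgeR adjusted p = 0.0024), while the SNU-449 nuclear groups overlapped. Without SNU-449 cytoplasm NC replicate 2 the cytoplasmic change was -0.19, with an adjusted p of 0.229.

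CHAC1, an enzyme that breaks down glutathione, stood at 6.37 and 6.57 CPM in SNU-449 siPANAD nuclei, against 4.91 and 5.19 CPM in NC nuclei, and at 8.36 and 9.94 CPM in siPANAD cytoplasm, against 8.14 and 7.87 CPM in NC cytoplasm. HepG2 levels of CHAC1 were 2.599 and 2.92 CPM in siPANAD nuclei, against 3.84 and 5.13 CPM in NC nuclei, and 5.04 and 5.72 CPM in siPANAD cytoplasm, against 11.5 and 9.29 CPM in NC cytoplasm. CHAC1 fell in the HepG2 nucleus (-0.70 (SE 0.22), edgeR adjusted p = 0.0108) and cytoplasm (-0.94 (SE 0.21), 0.000488), and neither SNU-449 fraction passed (0.0744 and 0.392). The HepG2 nuclear call was lost without NC replicate 2 (-0.49) or siPANAD replicate 1 (-0.62) and with DESeq2 (adjusted p = 0.0517), and a rise in the SNU-449 nucleus passed under total-count scaling (0.41, adjusted p = 0.0442). VLDLR, a lipoprotein receptor and known ATF4 target, stood at 21.2 and 20.8 CPM in SNU-449 siPANAD nuclei, against 24.4 and 28.1 CPM in NC nuclei, and at 17.4 and 10.1 CPM in siPANAD cytoplasm, against 25.7 and 29.5 CPM in NC cytoplasm. In HepG2, VLDLR stood at 34.4 and 31.6 CPM in siPANAD nuclei, against 81.3 and 83.99 CPM in NC nuclei, and at 25.8 and 23.1 CPM in siPANAD cytoplasm, against 86.6 and 114 CPM in NC cytoplasm. It fell in the SNU-449 cytoplasm (-1.01 (SE 0.17), edgeR adjusted p = 4.94e-05) and in the HepG2 nucleus (-1.32 (SE 0.14)) and cytoplasm (-2.04 (SE 0.14)). Its lower level in SNU-449 siPANAD nuclei missed the threshold (adjusted p = 0.0843) and passed with no filter on low counts (-0.36, adjusted p = 0.0118), with only the 2 groups compared (-0.32, adjusted p = 0.0161) and without either siPANAD cytoplasmic library of that line.

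Of the 6 amino acid genes, 4 fell and 1 rose in the SNU-449 nucleus, 3 fell in its cytoplasm, 3 fell in the HepG2 nucleus and 4 in its cytoplasm. SLC7A5, the LAT1 transporter of large neutral amino acids, stood at 545 and 496 CPM in SNU-449 siPANAD nuclei, against 1444 and 1292 CPM in NC nuclei, and at 683 and 676 CPM in siPANAD cytoplasm, against 1636 and 1794 CPM in NC cytoplasm. SLC7A5 had HepG2 levels of 978 and 1123 CPM in siPANAD nuclei, against 1372 and 1401 CPM in NC nuclei, and 1110 and 995 CPM in siPANAD cytoplasm, against 1867 and 1435 CPM in NC cytoplasm. The falls were -1.39 (SE 0.094) and -1.34 (SE 0.094) in the SNU-449 nucleus and cytoplasm, and -0.40 (SE 0.15) and -0.65 (SE 0.15) in HepG2 (edgeR adjusted p at most 0.0301). The HepG2 nuclear call was lost without any of that line's 4 nuclear libraries (-0.52 to -0.31) and under total-count scaling (-0.24). Its heavy chain partner SLC3A2 stood at 896 and 856 CPM in SNU-449 siPANAD nuclei, against 1208 and 1014 CPM in NC nuclei, and at 491 and 492 CPM in siPANAD cytoplasm, against 798 and 812 CPM in NC cytoplasm. HepG2 levels of SLC3A2 were 708 and 646 CPM in siPANAD nuclei, against 649.9 and 816 CPM in NC nuclei, and 442 and 366 CPM in siPANAD cytoplasm, against 546 and 549 CPM in NC cytoplasm. It fell in the SNU-449 nucleus (-0.34 (SE 0.092)) and cytoplasm (-0.71 (SE 0.093)) and in the HepG2 cytoplasm (-0.44 (SE 0.14), edgeR adjusted p = 0.0135), and its HepG2 nuclear groups overlapped. The SNU-449 nuclear call was lost without NC replicate 1 (-0.22) and the HepG2 cytoplasmic call without siPANAD replicate 2 (-0.34).

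The serine synthesis enzymes did not move together. PSPH, which catalyses the final step to serine, stood at 60.6 and 64.99 CPM in SNU-449 siPANAD nuclei, against 41.01 and 39.4 CPM in NC nuclei, and at 103 and 108 CPM in siPANAD cytoplasm, against 94.1 and 103 CPM in NC cytoplasm. In HepG2, PSPH stood at 51.5 and 47.6 CPM in siPANAD nuclei, against 41.5 and 46.8 CPM in NC nuclei, and at 176 and 178 CPM in siPANAD cytoplasm, against 213 and 187 CPM in NC cytoplasm. It rose in the SNU-449 nucleus (0.64 (SE 0.097), edgeR adjusted p = 1.17e-06) and in none of the other 3 comparisons, though under total-count scaling a rise in the HepG2 nucleus (0.33, adjusted p = 0.0296) and a fall in its cytoplasm (-0.29, adjusted p = 0.0496) passed. PSAT1, the step before it, stood at 19.3 and 17.7 CPM in SNU-449 siPANAD nuclei, against 26.3 and 23.8 CPM in NC nuclei, and at 61.1 and 50.1 CPM in siPANAD cytoplasm, against 68.6 and 66.9 CPM in NC cytoplasm. PSAT1 had HepG2 levels of 65.7 and 67.4 CPM in siPANAD nuclei, against 102 and 104 CPM in NC nuclei, and 278 and 276 CPM in siPANAD cytoplasm, against 339 and 489.6 CPM in NC cytoplasm. It fell in all 4 comparisons, by -0.44 (SE 0.12), -0.29 (SE 0.11), -0.63 (SE 0.15) and -0.58 (SE 0.14) (edgeR adjusted p at most 0.035). The SNU-449 nuclear call was lost without siPANAD replicate 2 (-0.38), the SNU-449 cytoplasmic call without NC replicate 1, NC replicate 2 or siPANAD replicate 2 (-0.28 to -0.15), with DESeq2 (adjusted p = 0.0658) or under total-count scaling (-0.25), and the HepG2 cytoplasmic call without NC replicate 2 (-0.29). PHGDH, the entry enzyme, fell in the SNU-449 nucleus (-0.41 (SE 0.091), edgeR adjusted p = 0.000371) and passed in no other comparison.

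ASNS, asparagine synthetase, had few assigned counts in SNU-449: 0 and 0 in siPANAD cytoplasm, against 1 and 2 in NC cytoplasm, and 17 and 14 in siPANAD nuclei, against 13 and 13 in NC nuclei. HepG2 levels of ASNS were 5.16 and 5.84 CPM in siPANAD nuclei, against 13.6 and 13.97 CPM in NC nuclei, and 1.599 and 2.901 CPM in siPANAD cytoplasm, against 6.87 and 4.24 CPM in NC cytoplasm. It fell in both HepG2 fractions (-1.33 (SE 0.21) and -1.26 (SE 0.28), edgeR adjusted p = 1.01e-05 and 0.000494). Of its exonic bases 44.6% are shared on the same strand with the gene AC079781.5, so the counting program may have dropped or split its reads and its level is uncertain. A count of 0 in these libraries allows up to 3 counts, which is 0.099 to 0.185 CPM before TMM scaling and covers counting error only.

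Other genes of the same pathways were counted beside the members. Their lists, like the members, were chosen with earlier results of these data known. Of 34 other ER stress genes tested, 17 fell and 3 rose in each SNU-449 fraction, 17 fell and 2 rose in the HepG2 nucleus, and 16 fell and 4 rose in its cytoplasm, with median log2 changes of -0.24, -0.30, -0.34 and -0.34. Of the other ATF4 programme genes, 16 of 29 fell and 2 rose in the SNU-449 nucleus and 13 fell and 3 rose in its cytoplasm, while 21 of 30 fell and 2 rose in the HepG2 nucleus and 20 fell and 3 rose in its cytoplasm. Their medians were -0.38, -0.19, -0.99 and -0.78 in that order. Of all genes tested 23.9%, 20.1%, 23.6% and 24.2% fell in the same order, and 22.1%, 19.6%, 22% and 23.7% rose. By adjusted p, the secreted glycoprotein gene STC2 and the angiogenic factor gene VEGFA led the falls in SNU-449, with log2 changes of -1.65 and -1.25 in the nucleus and -2.15 and -1.37 in the cytoplasm. CTH, an enzyme of cysteine synthesis, and SLC7A1, a carrier of cationic amino acids, led in HepG2, with -2.27 and -1.91 in the nucleus and -2.18 and -2.20 in the cytoplasm. The rises were led by ATF6B (0.58) and EDEM2 (0.54) in the SNU-449 nucleus, EDEM2 (0.40) and SHMT2 (0.37) in its cytoplasm, and WFS1 and EIF2AK4 in HepG2 (0.99 and 0.75 in the nucleus, 0.90 and 0.91 in the cytoplasm). EIF2AK4 encodes GCN2, the eIF2 kinase that senses amino acid shortage.

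In NC cells members differed between the nucleus and the cytoplasm about as often as all genes, with 73.5% called in SNU-449 and 79.4% in HepG2. The ratio is relative to the typical gene of the libraries, since TMM scaling sets the middle of the genes equal, and is not an amount per cell. In SNU-449 11 members were higher and 14 lower in the nucleus, beside 43.5% and 36.2% of all genes (79.8% called), and in HepG2 8 were higher and 19 lower, beside 39.4% and 37.7% (77.1% called). With libraries scaled to their total counts instead, the median of all genes moved by 0.849 in SNU-449 and 0.619 in HepG2, and the sign turned for 8 of the 25 and 6 of the 27 called members. Higher genes then made up 76.6% of the SNU-449 calls in place of 54.6%, and 70.2% of the HepG2 calls in place of 51.1%. The highest nuclear ratios in SNU-449, on the log2 scale, were those of HSP90B1 (1.89 (SE 0.098)), DDIT3 (1.80 (SE 0.18)) and HSPA5 (1.65 (SE 0.094)), and the lowest those of TRIB3 (-2.11 (SE 0.095)) and SDF2L1 (-1.83 (SE 0.11)), leaving out ASNS. In HepG2 ASNS had the highest ratio, with a mean of 13.8 CPM in NC nuclei against 5.56 CPM in NC cytoplasm. Of the others SYVN1 (1.24 (SE 0.14)) and HSP90B1 (0.94 (SE 0.14)) were high, and TRIB3 (-2.39 (SE 0.15)), ATF4 (-2.21 (SE 0.14)) and PSPH (-2.18 (SE 0.13)) low (edgeR adjusted p at most 9.16e-07). All of these kept their sign under that scaling.

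The ratio of nucleus to cytoplasm changed with siPANAD in 14 members in SNU-449 and in 4 in HepG2. In SNU-449 11 ratios rose and 3 fell, beside 9.69% and 10.5% of all genes (20.2% called), and in HepG2 4 rose and 0 fell, beside 4.91% and 4.98% (9.89% called). Total-count scaling moved the HepG2 median of all genes by 0.2765, and rises made up 87.2% of the calls in place of 49.7% (68.2% with no filter on low counts). The test is the nuclear minus the cytoplasmic log2 fold change, so it uses the same libraries as the changes above. The 4 ratios that rose in HepG2, those of ERO1B, EDEM1, TRIB3 and VLDLR, were also among the 11 that rose in SNU-449. That is 4 of the 34 members, beside 450 of the 15017 genes tested in both lines (3.0%). Over all genes tested 859 ratios rose in HepG2 and 1734 in SNU-449. Whether shared rises were more frequent among the members than among all genes was not tested.

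For ERO1B the shift was 1.58 (SE 0.16) in SNU-449 and 1.85 (SE 0.43) in HepG2 (edgeR adjusted p = 3.35e-09 and 0.00685), where nuclear levels were higher and cytoplasmic levels lower after siPANAD. For EDEM1 it was 1.35 (SE 0.17) and 0.84 (SE 0.20) (3.31e-07 and 0.0075). TRIB3 fell in both compartments and more so in the cytoplasm, which gave shifts of 0.85 (SE 0.13) in SNU-449 and 0.89 (SE 0.20) in HepG2 (edgeR adjusted p = 1.34e-05 and 0.00594). VLDLR had shifts of 0.69 (SE 0.23) and 0.72 (SE 0.20) (edgeR adjusted p = 0.0367 and 0.0193). The VLDLR call in SNU-449 was lost in 5 of 8 runs without a library and was smallest without cytoplasm siPANAD replicate 2 (0.35), and in HepG2 it was lost without cytoplasm siPANAD replicate 2 (0.72), nucleus NC replicate 1 (0.69) or nucleus siPANAD replicate 1 (0.66). In SNU-449 it was also lost with DESeq2 (adjusted p = 0.0521) and with the replicate block (0.0513). The ERO1B shift in HepG2 was 1.48 without nucleus siPANAD replicate 1, with an adjusted p of 0.052, and DESeq2 gave it no adjusted p.

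**Figure D3:**
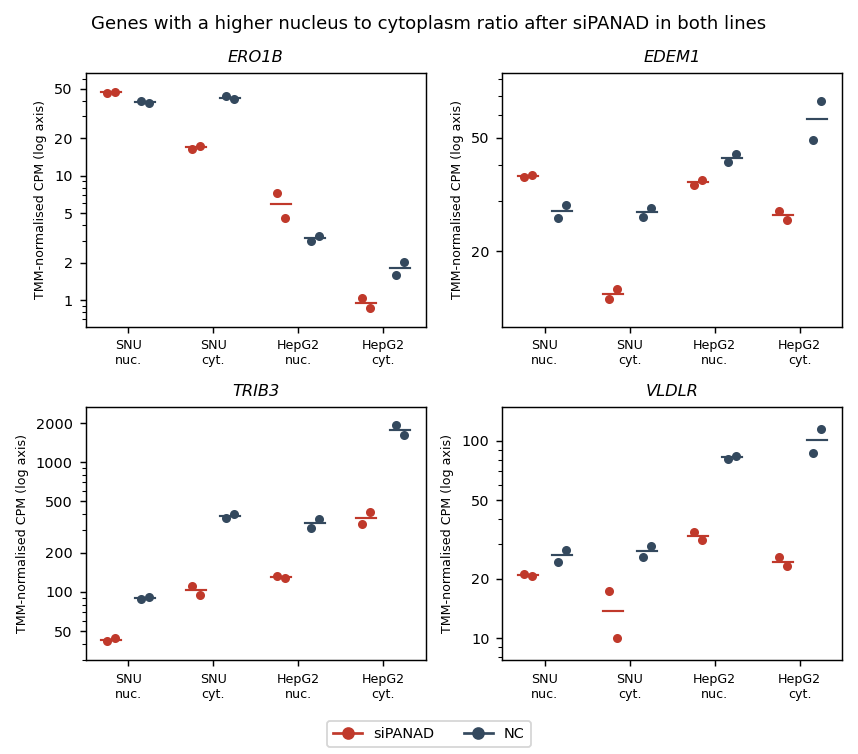
TMM-normalised CPM (log axis) of ERO1B, EDEM1, TRIB3 and VLDLR in each library (points) with the mean of 2 libraries (line), by line and fraction, with siPANAD left of NC. In each panel and line the change after siPANAD is more negative in the cytoplasm than in the nucleus, and the nuclear siPANAD points lie above the NC points for ERO1B in both lines and for EDEM1 in SNU-449.

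The other SNU-449 ratios that rose were those of HYOU1 (0.71 (SE 0.13)), ATF4 (0.65 (SE 0.13)), PDIA4 (0.59 (SE 0.13)), PSPH (0.54 (SE 0.14)), ERO1A (0.46 (SE 0.15)), PPP1R15A (0.46 (SE 0.15)) and SLC3A2 (0.37 (SE 0.13)). Those that fell were DNAJC3 (-0.50 (SE 0.17)), CEBPG (-0.47 (SE 0.17)) and HSP90B1 (-0.37 (SE 0.13)), with edgeR adjusted p between 0.0293 and 0.0446. The 3 falls and the rises of ERO1A, PPP1R15A and SLC3A2 were each lost in 5 or more of 8 runs without a library. Other settings also ended the calls of HSP90B1 (DESeq2 size factors or total-count scaling), DNAJC3 (DESeq2), CEBPG (total-count scaling, DESeq2 or the replicate block, which gave an adjusted p of 0.055), and ERO1A and SLC3A2 (no filter on low counts). The DDIT3 ratio passed with DESeq2 size factors (0.74, adjusted p = 0.0443) and with no filter (0.70, adjusted p = 0.0275). In HepG2 the ratios of HYOU1, DNAJB11, SEL1L, ERN1, PSPH and SLC3A2 rose under total-count scaling alone among the settings that kept all libraries, by 0.53 to 0.77.

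The lines differed in how far members moved with siPANAD, tested by subtracting the HepG2 effect from that in SNU-449 within 1 fit of all 16 libraries and 20459 genes. In the nucleus 13 members had a positive difference and 3 a negative one, beside 11.3% and 9.61% of all genes (20.9% called). In the cytoplasm 10 were positive and 2 negative, beside 9.17% and 8.98% (18.2% called). Under total-count scaling positive differences made up 43.1% of the nuclear calls in place of 54%, and 70.9% of the cytoplasmic calls in place of 50.5%, where the median of all genes moved by 0.1856. A positive difference means a smaller fall, or a rise, in SNU-449. The lines differ in much besides their response, hepatocyte genes included, and the part of those differences was not tested.

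The smallest adjusted p among nuclear differences were those of PPP1R15A (1.48 (SE 0.18), edgeR adjusted p = 2.54e-08), HYOU1 (1.28 (SE 0.17), 1.06e-07) and ERN1 (1.32 (SE 0.18), 1.11e-07), and the cytoplasmic ones those of ERN1 (1.61 (SE 0.22), 2.56e-07), PPP1R15A (1.22 (SE 0.18), 1.99e-06) and HSP90B1 (0.88 (SE 0.17), 0.000161). ERN1, HYOU1, PPP1R15A, SYVN1, CHAC1, VLDLR and HSPA5 had a positive difference in both fractions. The HSPA5 call was lost without siPANAD replicate 2 of either nuclear group pair (0.51 and 0.52), and in the cytoplasm without HepG2 siPANAD replicate 2 (0.51), SNU-449 NC replicate 2 (0.51) or SNU-449 siPANAD replicate 1 (0.43). The nuclear CHAC1 call was lost without HepG2 NC replicate 2 (0.82) and the cytoplasmic VLDLR call without SNU-449 siPANAD replicate 1 (0.57). SLC7A5 ran the other way in both, with -1.01 (SE 0.18) in the nucleus and -0.73 (SE 0.18) in the cytoplasm (edgeR adjusted p = 3.44e-05 and 0.00262), since it fell further in SNU-449. For TRIB3 the differences were 0.29 (SE 0.18) and 0.30 (SE 0.18), which missed the threshold (edgeR adjusted p = 0.276 and 0.27), though under total-count scaling the cytoplasmic difference was 0.49 and passed (adjusted p = 0.0214).

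**Figure D4:**
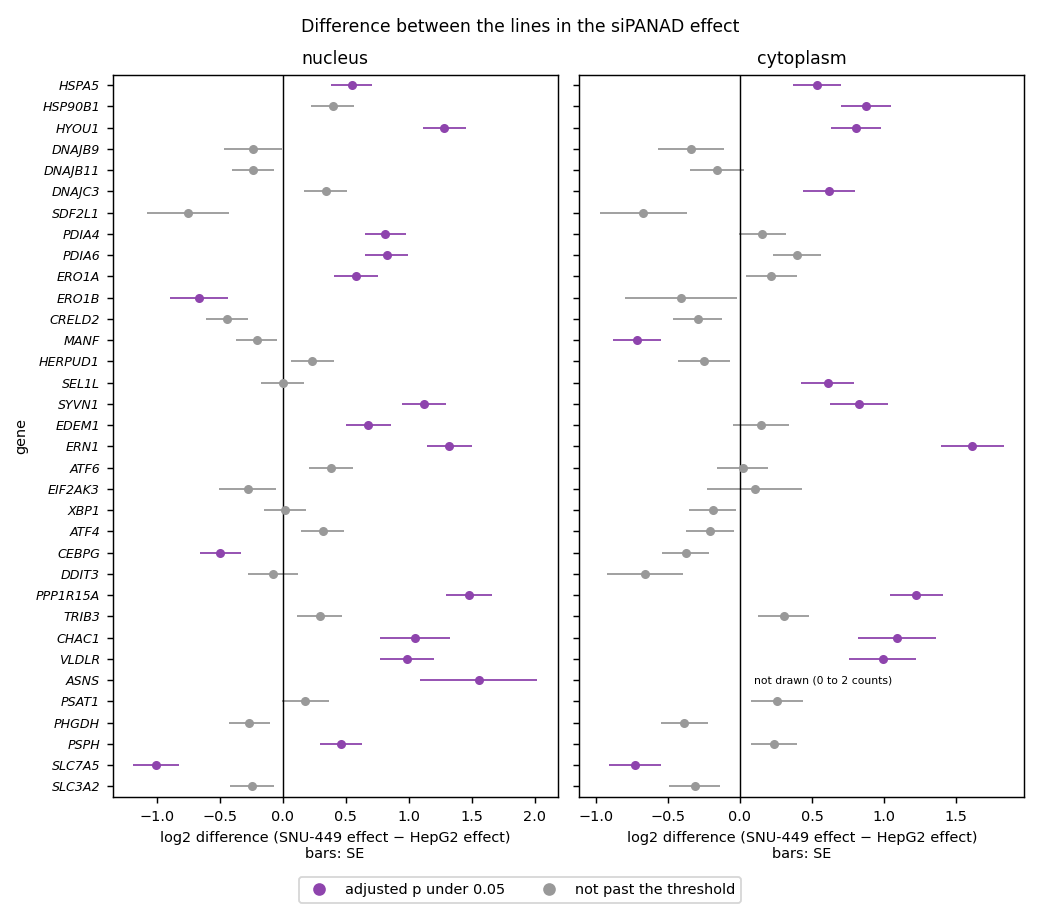
Difference between the lines in the siPANAD effect (SNU-449 minus HepG2, log2 scale, points with SE bars) for each gene in the nucleus (left) and the cytoplasm (right), purple where the edgeR adjusted p is under 0.05. ERN1 and PPP1R15A lie between 1.22 and 1.61 in both panels, SLC7A5 lies at -1.01 and -0.73, and ASNS in the cytoplasm is not drawn.

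The lines also differed at the start. In NC cytoplasm 25 members were lower and 4 higher in SNU-449 than in HepG2, beside 36.9% and 34.3% of all genes (71.2% called), and the members' median difference was -1.42 on the log2 scale. Scaled over both lines, XBP1 stood at 137 and 143 CPM in SNU-449, against 626 and 568 CPM in HepG2 (log2 difference -2.09 (SE 0.12), edgeR adjusted p = 3.72e-21). PDIA6 stood at 123 and 122 CPM in SNU-449, against 731 and 864 CPM in HepG2 (-2.70 (SE 0.13)). The 4 members that were higher in SNU-449 were ERO1B (4.49 (SE 0.19)), SDF2L1 (2.46 (SE 0.22)), CRELD2 (1.40 (SE 0.12)) and SLC3A2 (0.54 (SE 0.13)). ERO1B stood at 43.1 and 41.7 CPM in SNU-449, against 1.61 and 2.05 CPM in HepG2.

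To set genes side by side, levels were taken per kilobase of all annotated exonic bases of a gene. These bases can exceed the length of its mRNA, so the order of members is approximate. By this measure ATF4 was the most abundant member in NC cytoplasm of both lines, with 411 ± 9.28 CPM per kb in SNU-449 and 837 ± 5.63 in HepG2 (SD, n = 2). SLC7A5 (361 ± 23.5) and SDF2L1 (283 ± 21.2) followed in SNU-449, and TRIB3 (518 ± 60.1) and SLC7A5 (348 ± 64.4) in HepG2. The sensors ERN1 and EIF2AK3 were among the 4 lowest members in each line, at 0.661 and 0.436 CPM per kb in SNU-449 and 2.73 and 2.71 in HepG2.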

How the data were processed

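RNA-seq of nuclear and cytoplasmic RNA gave raw read counts per gene, deposited by the authors as 1 table per cell line and used as whole numbers, unchanged. The submitters' processing notes name Trim Galore 0.6.4, HISAT2 2.2.1 and the hg38 build. Libraries were directional, per the labels' protocols. How the reads behind the deposited counts were assigned, with which annotation and use of strand, is not given in the sources used here. ANK2's entry, broken over several lines in both tables, was left out. Symbols and positions came from the tables of GENCODE (release 29, GRCh38).

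In R 4.3.3 with edgeR 4.0.16, genes were kept by filterByExpr (minimum count 10), libraries scaled by TMM, and all 8 libraries of a line fitted with 1 mean per group (glmQLFit, robust; glmQLFTest). The 2 lines were compared in 1 fit of all 16 libraries. Tests were two-sided, and adjusted p-values are Benjamini-Hochberg values over all genes tested (17499 in HepG2, 17895 in SNU-449, 20459 jointly). For these fits edgeR put the common biological coefficient of variation at 0.101, 0.0728 and 0.0891. TMM hides a change shared by nearly all genes. The fits were run on simulated counts with the same spread set for every gene, so that run does not cover genes that vary more. Replicates differed by more than counting noise (chi-square per degree of freedom 4.48 to 33.0, the highest in HepG2 cytoplasm NC).

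The alternatives were DESeq2 size factors, total-count scaling, no filter, DESeq2 1.42.0, a replicate block, only the 2 groups compared, and leaving out each library. Members and lists were chosen with earlier results of these data known. Values per library are given for the 2 members with the smallest adjusted p in each role and siPANAD comparison, the 3 with the smallest in each ratio shift and line difference, and ERN1, ATF6, EIF2AK3, XBP1, ATF4 and DDIT3; the 2 other pathway genes with the smallest adjusted p in each direction are named. A further few members were named after their values were seen, to account for all 34.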

Additional observations from a re-analysis of the deposited data

Results flagged for a closer look

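The siPANAD effect on 20 of the 34 members differed between the lines in at least 1 fraction, beside 29.1% of all genes tested, by edgeR's test of the difference itself (SNU-449 effect minus HepG2 effect, log2 scale, adjusted p under 0.05, n = 2 libraries per group). In the nucleus the differences of the folding genes were 0.55 for HSPA5, 1.28 for HYOU1, 0.81 for PDIA4, 0.82 for PDIA6, 0.58 for ERO1A and -0.67 for ERO1B. For degradation genes they were 1.12 for SYVN1 and 0.68 for EDEM1, and for the sensor ERN1 and the factor CEBPG 1.32 and -0.50. Feedback genes had 1.48 (PPP1R15A), 1.05 (CHAC1) and 0.98 (VLDLR), and amino acid genes 1.55 (ASNS, at 13 to 17 counts in SNU-449 nuclei), 0.46 (PSPH) and -1.01 (SLC7A5).

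In the cytoplasm the differences were 0.54 for HSPA5, 0.88 for HSP90B1, 0.81 for HYOU1, 0.62 for DNAJC3 and -0.71 for MANF among folding genes, and 0.61 for SEL1L and 0.83 for SYVN1 among degradation genes. ERN1 had 1.61, PPP1R15A 1.22, CHAC1 1.09, VLDLR 0.99 and SLC7A5 -0.73. Leaving out single libraries lost the call in 11 of 16 runs for nuclear PSPH, in 5 for nuclear CEBPG and ERO1B, in 4 for nuclear ERO1A, and in 1 to 3 for HSPA5, CHAC1, ASNS, DNAJC3, SEL1L and VLDLR. The smallest values in those runs were 0.37 for PSPH and 0.29 in size for ERO1B (-0.29, without HepG2 nucleus siPANAD replicate 1). With all libraries kept, ERO1B lost its nuclear call with DESeq2 (adjusted p = 0.0626), and PSPH under total-count scaling, with no filter on low counts and with the replicate block (adjusted p = 0.0548). Other settings also added nuclear calls. CRELD2 passed with DESeq2 size factors (-0.45), DESeq2 (-0.45) and total-count scaling (-0.54). SDF2L1 passed with DESeq2 (-0.75) and with no filter (-0.78), and HSP90B1, on the positive side, with DESeq2 (0.40).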

How the results depend on the processing

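Direction held for every called siPANAD effect under all alternatives run. The counts of fallen members in the 4 siPANAD comparisons stayed within 1.5 times of those reported under all alternatives; without single libraries they ran from 20 to 23 in the SNU-449 nucleus, 22 to 26 in its cytoplasm, 21 to 27 in the HepG2 nucleus and 24 to 29 in its cytoplasm. The few rises moved more: the SNU-449 nucleus had 3 with DESeq2 or with no filter and 2 to 5 without single libraries, and the HepG2 nucleus 2 under total-count scaling, 0 with DESeq2 and 0 to 2 without single libraries. Shifts that rose in HepG2 numbered 10 under total-count scaling and 2 to 5 without single libraries. In SNU-449 risen shifts numbered 7 to 10 without single libraries, and fallen ones 1 under total-count scaling, 1 with DESeq2 and 0 to 3 without single libraries. Nuclear ratios in NC under total-count scaling were higher in 25 and lower in 6 members in SNU-449, and higher in 16 and lower in 10 in HepG2. Without single libraries these were 10 to 11 and 14 to 15 in SNU-449, and 6 to 8 and 18 to 20 in HepG2. Negative line differences numbered 4 in the cytoplasm with DESeq2, and without single libraries 1 to 4 in the nucleus and 2 to 3 in the cytoplasm. Positive ones numbered 10 to 14 and 8 to 12. Members lower in SNU-449 than in HepG2 numbered 24 to 26 without single libraries and higher ones 4. Total-count scaling moves the median of all genes, by the amounts given above and by -0.1141 in the HepG2 cytoplasm and -0.104 between the lines. DESeq2 size factors moved the last by 0.111, DESeq2 by 0.1081 and no filter by -0.1062. No filter moved the HepG2 shift by 0.1132. The causes of the other changes were not tested. With 2 libraries per group, 1 library can end a call near the threshold.

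The replicate numbers gave no sign of pairing: differences between replicates 1 and 2 correlated between groups of a line at -0.125 to 0.084. With a replicate block, 22 members fell and 4 rose in the SNU-449 nucleus, 26 and 0 in its cytoplasm, 26 and 1 in the HepG2 nucleus and 27 and 0 in its cytoplasm, and 10 shifts rose and 2 fell in SNU-449.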
